A study of Danio rerio with 6 samples.

Results

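Bmp ligands and the proteins that tune them outside the cell were followed in the tailbud region of zebrafish (Danio rerio) embryos. The genes were chosen by name: 5 ligand genes (bmp2a, bmp2b, bmp4, bmp7a and bmp7b) and 5 modulator genes (nog1, nog2, chrd, szl and bambia), 10 of the 32520 genes in the tables. Each name matched 1 row, and all 10 passed the filter on low counts, as did 17803 genes in all. Polyadenylated RNA was sequenced from the region behind the youngest somite, dissected 16 hours after fertilisation, with 6 libraries in 2 groups. The sall4 morphants, 3 libraries, had received a sall4 morpholino, which is an antisense oligomer directed at the transcript of the zinc finger gene sall4. The controls, also 3 libraries, were mixed: embryos of control 1 had received a scrambled morpholino, and those of controls 2 and 3 no injection. No mutant allele or transgene is named in the labels, which do not say how many embryos were pooled or whether each library is a clutch of its own. The p-values therefore reflect only how far these samples spread, which may be technical.

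Bmp proteins are secreted dimers that bind pairs of type I and type II receptor kinases, which phosphorylate Smad1, Smad5 and Smad9. In the zebrafish embryo, Bmp signalling specifies ventral fates in the gastrula and continues in the tailbud, where it takes part in forming the tail. Noggins and Chordin bind the ligands in the extracellular space and keep them from their receptors. Chordin is itself cut by Tolloid-type proteases, and Sizzled, the product of szl, inhibits those proteases. Bambi is a membrane protein that resembles a type I receptor without a kinase domain and dampens signalling.

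Total counts were 18626513 to 25144393 in the morphants and 18687559 to 42423495 in the controls. The target transcript, sall4, stood at 974.5 to 1390 CPM (counts scaled to library size) in morphants and 1110 to 1347 CPM in controls. Where a morpholino acts on translation, transcript levels are no test of the injection, so these values leave it unchecked. Morphant libraries differed more among themselves than controls: the SD of log2 CPM within a group had a median over genes of 0.59 for morphants and 0.25 for controls. Long genes were low in morphants 1 and 3 and high in morphant 2, with Spearman correlations across genes of -0.42, 0.43 and -0.28 in morphants 1, 2 and 3, against 0.21, -0.01 and 0.04 in controls 1, 2 and 3. Of 9 tailbud and presomitic mesoderm markers 8 were detected in every library (tbxta at 460.9 to 690.4 CPM in morphants and 612.2 to 709.2 CPM in controls), while both rows named wnt8a were at or near 0 throughout. Markers of the anterior brain and eye were low in both groups, with summed levels over 6 genes of 18.0 to 38.9 CPM in morphants and 7.34 to 24.4 CPM in controls. All 5 tested had a log2 fold change of morphants over controls above 0, against 58.2% of all tested genes, with a median of 1.17. For 1 of the 5, mab21l2, all morphants were above all controls, against 7.77% of all tested genes.

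Within a library, levels per gene length are given by the deposited FPKM values. Of the 10 genes, bambia had the highest FPKM in all 6 libraries. It averaged 113.3 ± 40.4 FPKM in morphants and 90.0 ± 4.48 FPKM in controls (SD, n = 3 each). In the controls nog1 came next at 56.5 ± 3.58 FPKM, followed by nog2 at 39.0 ± 3.76 FPKM, and the values of these 3 genes did not overlap. The control levels of bmp4 (21.5 ± 4.37 FPKM), szl (18.4 ± 13.7 FPKM), chrd (16.0 ± 5.90 FPKM), bmp2b (14.3 ± 6.14 FPKM) and bmp2a (11.1 ± 0.52 FPKM) followed, and the values of neighbours among these 5 overlapped. The scarcest were bmp7a and bmp7b, at 2.88 ± 0.72 and 1.04 ± 0.26 FPKM in morphants and 3.45 ± 0.25 and 2.48 ± 1.41 FPKM in controls. Among the ligands bmp4 was highest in 5 of 6 libraries. The exception was morphant 2, with 18.9 FPKM of bmp4 and 21.2 FPKM of bmp2b.

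The comparison of morphants with controls asks whether transcripts of the Bmp system differ in the tailbud when sall4 is targeted. By edgeR's quasi-likelihood test with Benjamini-Hochberg adjustment over all tested genes, 0 of the 10 genes passed the threshold of 0.05 in either direction. Of all tested genes 0.0281% passed as higher and 0% as lower. DESeq2 called 0 of the 10 as well, against 0.927% of all genes higher and 0.961% lower. At an unadjusted p under 0.05, edgeR found 2 of the 10 lower, nog2 and bmp7b, and 0 higher, against 5.19% of all genes lower and 4.47% higher. In CPM the same 2 were the only ones of the 10 whose groups did not overlap, against 9.18% of all genes lower and 7.77% higher. The log2 fold change was below 0 for 6 of the 10 genes and for 41.8% of all tested genes, and above 0 for 4 of the 10 and for 58.2% of all tested genes. The median log2 fold change was -0.25 over the ligands and -0.46 over the modulators, beside 0.12 over all tested genes. Morphant 2 stood apart from the other morphants for several of the 10. In morphants 1 and 3 alone, 2 of the 10 (szl and bambia) lay above all controls and 4 (bmp7a, bmp7b, nog2 and chrd) below them all, against 25.9% of all tested genes above and 26.7% below. Values differed by more than 2 times among the morphants for 5 of the 10 (bmp2b, nog1, chrd, szl and bambia), against 57.9% of all tested genes, and among the controls for 3 of the 10 (bmp2b, bmp7b and szl), against 16% of all tested genes. These shares for the 10 genes were not tested against the rest. In such bulk samples, fewer cells of a type and less RNA per cell cannot be told apart.

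**Figure D1:**
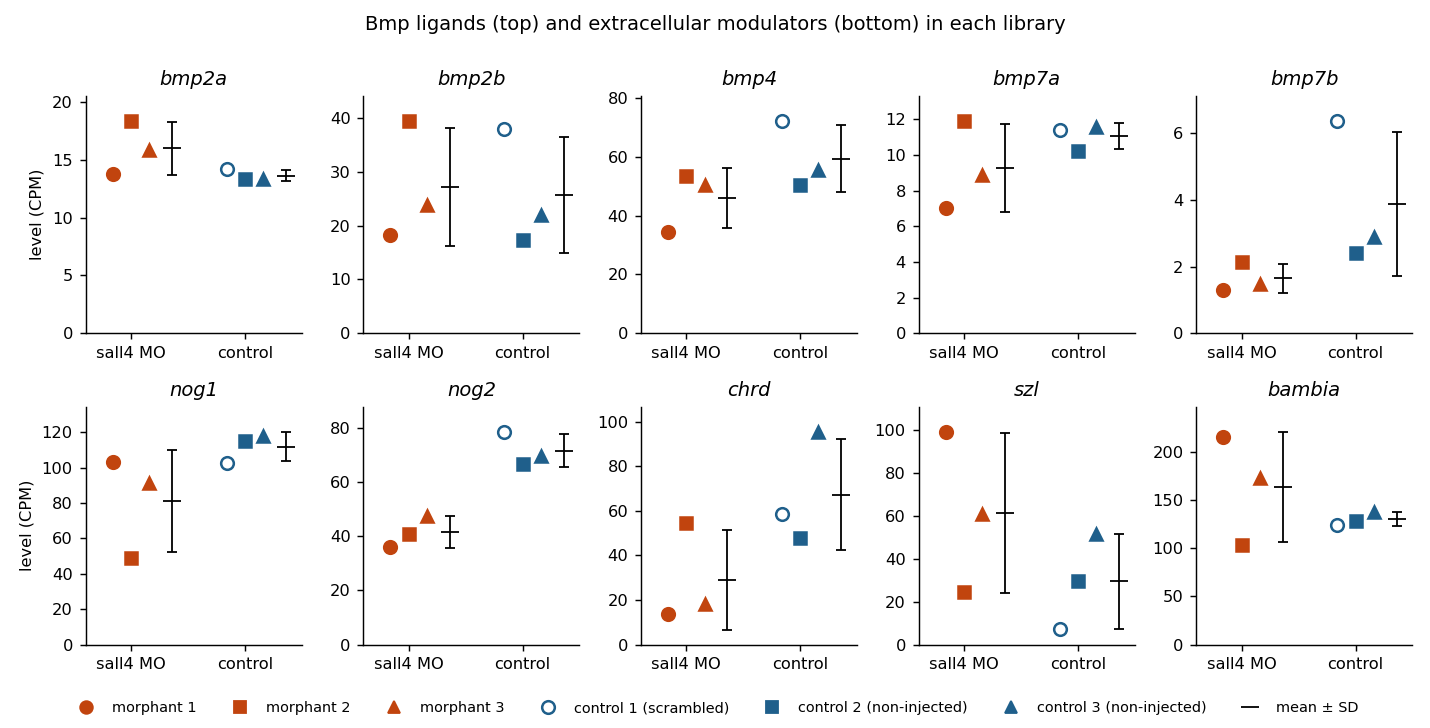
Level in CPM of each gene (vertical axes, each starting at 0) in the 3 sall4 MO libraries (orange, left) and the 3 control libraries (blue, right), with ligands in the top row and modulators in the bottom row. The open circle is the scrambled-injected control and the black bars are mean ± SD; the groups are apart for nog2 and bmp7b and overlap for the other 8 genes.

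Of the extracellular inhibitors, nog2 (ENSDARG00000043066), a noggin, differed most steadily. It stood at 36.1, 40.9 and 47.7 CPM in morphants 1, 2 and 3, against 78.4, 66.7 and 69.7 CPM in controls 1, 2 and 3. All morphants were below all controls, and both groups were narrow (41.6 ± 5.80 CPM in morphants and 71.6 ± 6.11 CPM in controls, SD, n = 3 each). The fold of morphants over controls was 0.581, a log2 fold change of -0.78 (SE 0.25), with an unadjusted p of 0.013 and an adjusted p of 0.38 by edgeR and 0.16 by DESeq2. Over 19 alternative settings the log2 fold change stayed between -0.93 and -0.61. It passed the threshold in 1 of the 19, limma-voom with library quality weights (adjusted p = 0.0054). That setting gave weights of 0.379, 0.136 and 5.53 to morphants 1, 2 and 3 and of 1.48, 0.745 and 3.17 to controls 1, 2 and 3, and it called 39.4% of all tested genes. Of 6 neural markers tested, 4 (sox3, sox19a, pax6a and elavl3) had all morphants below all controls, against 9.18% of all tested genes. For sox2 and neurog1 the groups overlapped, and the median log2 fold change of the 6 was -0.62. The summed level of the 6 was 877, 509 and 717 CPM in morphants 1, 2 and 3, against 982, 956 and 961 CPM in controls 1, 2 and 3. Among the morphants this sum was highest in morphant 1 and lowest in morphant 2, as were sox2, sox3 and neurog1. Both nog2 and elavl3 were lowest in morphant 1 among the morphants, and pax6a was lowest in morphant 2 and highest in morphant 3. The values of sox19a were nearly level, at 248.3, 257.7 and 248.3 CPM in morphants 1, 2 and 3. The neuronal RNA-binding protein gene elavl3 stood at 28.1, 50.5 and 42.1 CPM in morphants 1, 2 and 3, against 106.4, 75.3 and 111.5 CPM in controls 1, 2 and 3 (adjusted p = 0.25 by edgeR and 0.024 by DESeq2). The part of neural cells in the nog2 values was not tested.

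The other noggin gene of the 10, nog1 (ENSDARG00000058819), had 103.4, 48.7 and 91.4 CPM in morphants 1, 2 and 3, against 102.8, 114.9 and 118.1 CPM in controls 1, 2 and 3. Morphants 2 and 3 were below all controls, while morphant 1 was level with control 1. Morphants minus controls was -0.46 on the log2 scale (SE 0.32), with an edgeR adjusted p of 0.63. Without morphant 2, the lowest library, the log2 fold change was -0.22, and without morphant 1 it was -0.67 with all remaining morphants below all controls (adjusted p = 0.46). With a trend on gene length removed, nog1 had 98.4, 48.8 and 90.7 CPM in morphants 1, 2 and 3, against 104.5, 113.5 and 119.8 CPM in controls 1, 2 and 3. On that scale all morphants were below all controls, as they were with library sizes alone and in FPKM. Groups did not overlap for 19.3%, 16.5% and 17% of all tested genes in these settings, in either direction. Both noggins of the 10 were thus lower on average. In FPKM the ratio of nog1 to nog2 was 2.66, 1.11 and 1.78 in morphants 1, 2 and 3, around the control values, which lay between 1.22 and 1.6.

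The transcript of chrd (ENSDARG00000006110), which encodes Chordin, split the morphants. It stood at 13.9 CPM in morphant 1 and 18.3 CPM in morphant 3, and at 54.8 CPM in morphant 2, against 58.6, 47.8 and 95.3 CPM in controls 1, 2 and 3. Morphants 1 and 3 were below every control, and morphant 2 lay above control 2. By edgeR the log2 fold change was -1.21 with an SE of 0.54, an unadjusted p of 0.054 and an adjusted p of 0.52. Without morphant 2 it was -2.08 and passed the threshold (adjusted p = 0.017), in a fit that called 8.46% of all tested genes. Without morphant 1 and without control 3 it was -0.88 in each case.

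Of the 10 genes, chrd has the longest transcript model, at least as long as 80.4% of tested genes. Like long genes in general it was higher in morphant 2 than in morphants 1 and 3. The part of gene length in this pattern was not tested. With a trend on gene length removed from each library, chrd stood at 17.8, 42.9 and 20.1 CPM in morphants 1, 2 and 3, against 53.8, 48.1 and 92.0 CPM in controls 1, 2 and 3. On that scale all morphants were below all controls (log2 fold change -1.26 with an SE of 0.40, edgeR adjusted p = 0.28). With the trend removed and morphant 2 left out, a setting added after earlier results were known, the log2 fold change was -1.77 (adjusted p = 0.022), where 5.75% of all tested genes passed the threshold. Markers of the notochord and floor plate were also examined. Of 5 tested markers 4 had a log2 fold change below 0, against 41.8% of all tested genes, and 1, shhb, above. Of those below 0, shha was close to it, at -0.027. Their summed level over 6 genes was 389, 592 and 420 CPM in morphants 1, 2 and 3, against 1067, 600.1 and 989 CPM in controls 1, 2 and 3. The largest member of this sum in all 6 libraries was col2a1a, a collagen gene of the notochord sheath and cartilage, at 169.8, 400.2 and 186.3 CPM in morphants 1, 2 and 3, against 774.2, 255.3 and 725.2 CPM in controls 1, 2 and 3. Without it the other 5 summed to 219, 192 and 234 CPM in morphants 1, 2 and 3, against 293, 345 and 264 CPM in controls 1, 2 and 3. In that sum, chosen after the values were seen, all morphants were below all controls and morphant 2 was the lowest library. Its largest member in all 6 libraries was noto, a homeobox gene of the notochord. It stood at 150.1, 85.5 and 153.6 CPM in morphants 1, 2 and 3, against 175.0, 246.8 and 164.6 CPM in controls 1, 2 and 3. Of the morphants, noto was lowest in morphant 2, and col2a1a, foxa2, shha, shhb and chrd were highest there. The levels of foxa2 were 34.6, 47.5 and 35.7 CPM in morphants 1, 2 and 3, against 66.2, 62.7 and 58.0 CPM in controls 1, 2 and 3. For shha the groups overlapped (25.3 to 48.1 CPM in morphants and 27.9 to 46.2 CPM in controls), and col9a1a was near 0 throughout. The part of these markers in the chrd values was not tested.

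The gene with the widest spread was szl (ENSDARG00000099637), which encodes the secreted protease inhibitor Sizzled. It stood at 99.0, 24.4 and 61.0 CPM in morphants 1, 2 and 3, against 7.39, 29.5 and 51.4 CPM in controls 1, 2 and 3. Morphants 1 and 3 were above every control, and morphant 2 was below both non-injected controls. The lowest library was the scrambled-injected control, at 0.183 of the mean of the non-injected controls. For 4.76% of all tested genes that control was more than 2-fold below the non-injected mean, and szl was the only one of the 10 among them. Between morphants and controls edgeR gave a log2 fold change of 1.06 with an SE of 0.70 and an adjusted p of 0.62. Set against the scrambled control alone it was 3.04, and against the non-injected controls alone it was 0.60. Without morphant 1 it was 0.54, and without control 3 it was 1.73. None of these values passed the threshold, and the sign was the same in all 19 alternatives.

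Of the blood and endothelial markers, gata1a and the 3 globin genes shared with szl the highest library, morphant 1, and the lowest, the scrambled control. The embryonic globin gene hbae3 stood at 779, 166.9 and 329.7 CPM in morphants 1, 2 and 3, against 12.5, 127.3 and 96.7 CPM in controls 1, 2 and 3. The erythroid transcription factor gene gata1a stood at 30.7, 12.3 and 15.0 CPM in morphants 1, 2 and 3, against 0.772, 9.74 and 9.73 CPM in controls 1, 2 and 3. The other 4 did not share both ends: tal1 and fli1a were lowest in morphant 3, lmo2 was lowest in morphant 2, and kdrl was lowest in morphant 1. Over all 8 blood and endothelial markers the summed level was 2114, 568 and 987 CPM in morphants 1, 2 and 3, against 228, 532 and 522 CPM in controls 1, 2 and 3. Of the 8, 7 had a log2 fold change above 0, against 58.2% of all tested genes, and none was at 0 in any library. Among the 7, the values of lmo2, kdrl and fli1a were small, at 0.27, 0.058 and 0.056. Some globin genes are near-identical copies, so their counts may be split. The part of blood cells in the szl values was not tested.

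**Figure D2:**
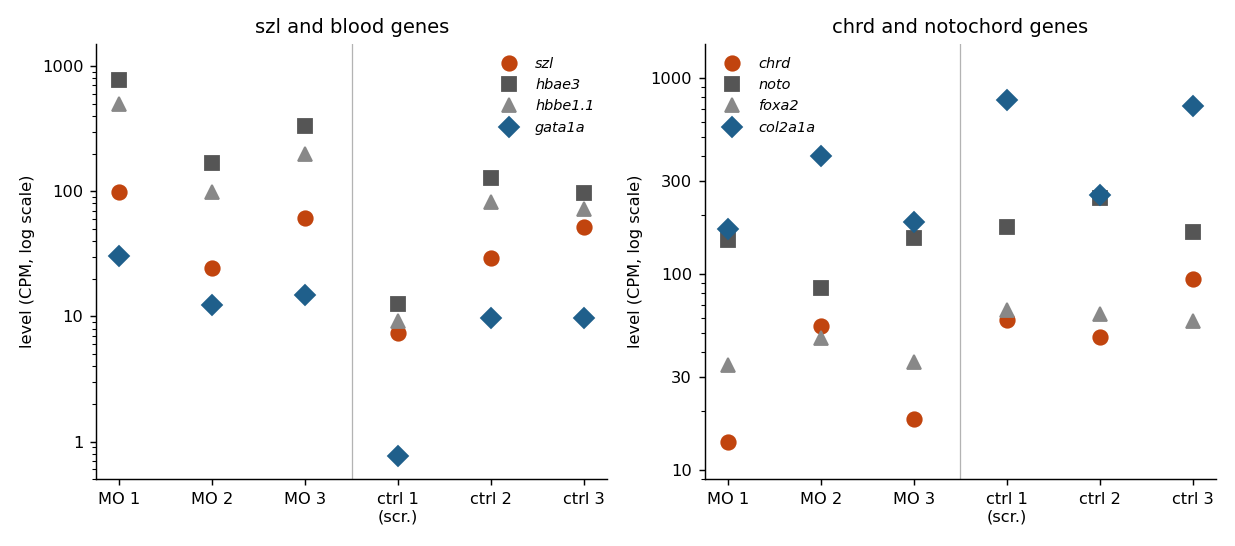
Level in CPM (logarithmic vertical axes) in each library, with sall4 MO libraries left of the line and controls right of it, ctrl 1 being the scrambled-injected control. On the left, szl is shown with 3 of the 8 blood and endothelial markers, all lowest in control 1 and highest in morphant 1. Not drawn are hbbe3, which shared both ends, and tal1, lmo2, kdrl and fli1a, which did not. On the right, chrd is shown with 3 of the 6 notochord and floor plate markers, and chrd is lowest in morphants 1 and 3. Also not drawn are shhb, which was higher in all morphants than in all controls, shha, whose groups overlapped, and col9a1a, near 0 throughout.

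The receptor-like inhibitor gene bambia (ENSDARG00000055381) stood at 216.0, 103.3 and 173.0 CPM in morphants 1, 2 and 3. In controls 1, 2 and 3 it stood at 124.3, 128.8 and 138.2 CPM. Morphant 2 was below and morphants 1 and 3 above every control, so the 3 controls lay inside the range of the morphants. Morphants minus controls was 0.33 on the log2 scale (SE 0.31), with an edgeR adjusted p of 0.70. It was 0.55 without morphant 2 (adjusted p = 0.086) and 0.09 without morphant 1. It passed the threshold in 1 of 19 alternatives, the voom fit with quality weights (adjusted p = 0.043), which called 39.4% of all tested genes. With the length trend removed, bambia had 178.5, 118.7 and 163.3 CPM in morphants 1, 2 and 3, against 131.9, 125.7 and 142.3 CPM in controls 1, 2 and 3. The morphants lay closer together on that scale, and morphant 2 was still below and morphants 1 and 3 above every control.

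Of the ligands, bmp7b (ENSDARG00000063230) had the lowest morphant values relative to controls. Its level was 1.31, 2.15 and 1.47 CPM in morphants 1, 2 and 3, against 6.37, 2.41 and 2.88 CPM in controls 1, 2 and 3. All morphants were below all controls, but morphant 2 and control 2 were close. They rest on 55 counts (exact Poisson 95% interval 41.4 to 71.6) in morphant 2 and 49 counts (36.3 to 64.8) in control 2, and the intervals cover counting error only. Its log2 fold change was -1.23 (SE 0.47), with an unadjusted p of 0.031 and an adjusted p of 0.46 by edgeR. The scrambled control was 2.41 times the non-injected mean. For 1.68% of all tested genes that control was more than 2-fold above that mean, and bmp7b was the only one of the 10 among them. Without that control the log2 fold change was -0.69 (adjusted p = 0.97), and against it alone it was -1.95. With voom quality weights bmp7b passed the threshold (adjusted p = 0.013), the only one of 19 alternatives in which it did. That fit called 39.4% of all tested genes. With the length trend removed the groups overlapped by a small margin, at 2.38 CPM in morphant 2 and 2.35 CPM in control 2.

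Its paralogue bmp7a (ENSDARG00000018260), the zebrafish snailhouse gene, whose product pairs with Bmp2b, had 7.03, 11.9 and 8.90 CPM in morphants 1, 2 and 3, against 11.4, 10.2 and 11.6 CPM in controls 1, 2 and 3. Morphants 1 and 3 were below every control and morphant 2 above them all. On the log2 scale morphants minus controls was -0.25 (SE 0.31), with an edgeR adjusted p of 0.76, and it was -0.49 without morphant 2 and -0.086 without morphant 1. With the length trend removed, bmp7a had 8.31, 9.80 and 9.55 CPM in morphants 1, 2 and 3, against 10.7, 10.3 and 11.3 CPM in controls 1, 2 and 3. On that scale all morphants were below all controls, where groups did not overlap for 19.3% of all tested genes in either direction. In FPKM, bmp7a stood at 2.62 to 2.97 times bmp7b in morphants and at 0.876 to 2.08 times bmp7b in controls.

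The ligand gene bmp4 (ENSDARG00000019995), active in the zebrafish tailbud, stood at 34.5, 53.4 and 50.5 CPM in morphants 1, 2 and 3, against 72.2, 50.4 and 55.5 CPM in controls 1, 2 and 3. Morphant 1 was below every control, control 1 was above the other libraries, and the remaining 4 were close. By edgeR the log2 fold change was -0.36 with an SE of 0.29 and an adjusted p of 0.67. It ranged from -0.65 to -0.19 over the alternatives. The share of bmp4 in the summed FPKM of the 5 ligands was 33.9%, 31.6% and 38.0% in morphants 1, 2 and 3, against 39.4%, 42.0% and 41.4% in controls 1, 2 and 3. All morphants were below all controls in this share, which was chosen after the values were seen and is given without a test.

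The values of bmp2b (ENSDARG00000041430), the zebrafish swirl gene and a main ventralising ligand of the gastrula, were 18.2, 39.4 and 23.9 CPM in morphants 1, 2 and 3, against 37.9, 17.3 and 22.0 CPM in controls 1, 2 and 3. Each group held 1 high library, morphant 2 and the scrambled control, and the other 4 libraries were close to each other. Its log2 fold change was 0.08 with an SE of 0.41 and an edgeR adjusted p of 0.95, and the sign was negative in 6 of 19 alternatives. Without control 1 it was 0.46, and without morphant 2 it was -0.31.

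The gene with the smallest control SD relative to its mean was bmp2a (ENSDARG00000013409), a paralogue of bmp2b. It had 13.8, 18.4 and 15.9 CPM in morphants 1, 2 and 3, against 14.2, 13.3 and 13.3 CPM in controls 1, 2 and 3. Morphants 2 and 3 were above all controls, and morphant 1 was within their range. Here edgeR gave 0.23 on the log2 scale, with an SE of 0.26 and an adjusted p of 0.74.

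**Figure D3:**
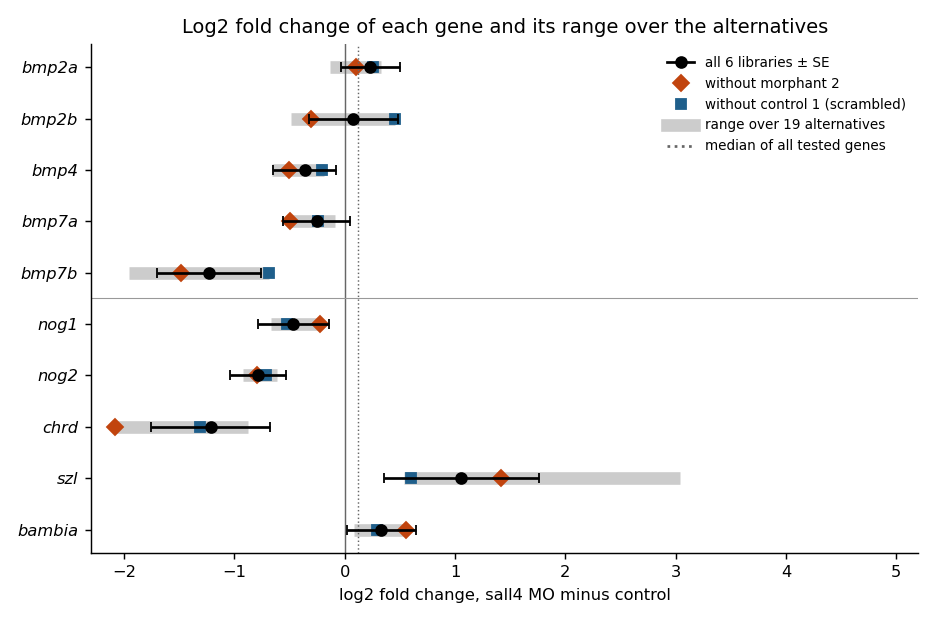
Log2 fold change of each gene, sall4 MO minus control (horizontal axis), with ligands above the grey line and modulators below it. Black points are the fit to all 6 libraries ± SE, diamonds leave out morphant 2, squares leave out the scrambled control, and grey bars span 19 alternatives; the bars of nog2, chrd, bmp7b, bmp4, bmp7a and nog1 lie below 0, those of szl and bambia above 0, and those of bmp2a and bmp2b cross it.

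The 3 ligand-binding inhibitors were also summed per library in FPKM, a sum chosen after the values were seen and given without a test. Together nog1, nog2 and chrd reached 75.3, 58.4 and 77.6 FPKM in morphants 1, 2 and 3, against 109.8, 104.7 and 119.9 FPKM in controls 1, 2 and 3. All morphants were below all controls. The summed FPKM of the 5 ligands was 36.9, 59.7 and 48.9 in morphants 1, 2 and 3, against 67.1, 43.0 and 48.5 in controls 1, 2 and 3, and the groups overlapped. Inhibitors over ligands gave 2.04, 0.978 and 1.59 in morphants 1, 2 and 3, against 1.64, 2.43 and 2.47 in controls 1, 2 and 3. Morphant 1 lay above control 1 in this ratio, so the groups overlapped there too.

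The 3 genes closest in pattern were sought for 4 of the 10, among 11668 genes whose mean log2 CPM reached 1. Likeness was the root mean square difference of log2 CPM over the 6 libraries, centred on each gene's mean. Closest to nog2 were foxa1, a forkhead gene of endoderm and midline, at 0.083, pitpnb at 0.083 and fbxo31 at 0.089, beside a median of 0.61 over all candidates. The levels of foxa1 were 18.1, 20.0 and 22.9 CPM in morphants 1, 2 and 3, against 41.5, 37.0 and 38.6 CPM in controls 1, 2 and 3. Closest to bmp7b were hs3st3b1a, which encodes a heparan sulfate sulfotransferase, at 0.16, gpc5a, which encodes a glypican, at 0.21, and samd1b at 0.23, beside a median of 0.83. For bmp4 they were atp6v0a1a, grk4 and ggt5a at 0.065 to 0.077, beside a median of 0.53. For bambia they were mrpl15, csnk2b and bsg at 0.035 to 0.041, beside a median of 0.52. Distances to the other members were taken from these 4 genes only. They ran from 0.17 between bmp4 and bmp7a to 1.87 between bmp7b and szl.

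The rest of the pathway was described by lists chosen by role. Tested were 14 receptors and co-receptors, 10 Smads and Smurfs, 9 other ligands, 15 rows of other modulators and 20 target genes. DESeq2 called 1 gene in these lists, the receptor gene bmpr1bb, lower, against 1.89% of all tested genes in either direction and 0.961% lower. By edgeR 0 were called, against 0.0281% of all tested genes higher and 0% lower. Of the 14 receptors and co-receptors, all tested, 13 had a log2 fold change below 0 and 1, acvr1l, above. Among all tested genes 41.8% were below 0, and the list median was -0.28 beside 0.12 over all. Of those below 0, bmpr1aa, bmpr1ab, bmpr1ba and hjv were close to it, at -0.056, -0.053, -0.042 and -0.056. The length trend was not removed for this count. By edgeR 0 passed the threshold, while 2 had an unadjusted p under 0.05, both lower, against 5.19% of all tested genes. The type I receptor gene bmpr1bb had 2.63, 4.03 and 3.35 CPM in morphants 1, 2 and 3, against 9.94, 6.64 and 10.5 CPM in controls 1, 2 and 3. All morphants were below all controls, with an edgeR log2 fold change of -1.43 (SE 0.34). Its adjusted p was 0.23 by edgeR and 0.013 by DESeq2. In edgeR it also passed without morphant 2 (adjusted p = 0.032), where 8.46% of all tested genes passed. The type II receptor gene acvr2ba had 8.28, 9.35 and 8.24 CPM in morphants 1, 2 and 3, against 17.9, 12.9 and 20.8 CPM in controls 1, 2 and 3 (edgeR adjusted p = 0.35). The co-receptor gene rgmb averaged 52.1 ± 4.05 CPM in morphants and 71.8 ± 2.15 CPM in controls (edgeR adjusted p = 0.57). Groups did not overlap for these 3 of the 14, all lower, against 9.18% of all tested genes.

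Of the 10 Smad and Smurf genes, which carry the signal to the nucleus or turn over its components, 8 had a log2 fold change below 0 and 2, smad5 and smad9, above. The median was -0.34, beside 0.12 over all tested genes, of which 41.8% were below 0, and 0 passed the edgeR threshold. Groups did not overlap for 2 of the 10, both lower, against 9.18% of all tested genes lower. By edgeR 1 gene, lower, had an unadjusted p under 0.05, against 5.19% of all tested genes lower. That gene was smad4b, a partner of the receptor-activated Smads, at 4.26 ± 0.69 CPM in morphants and 7.40 ± 0.26 CPM in controls (log2 fold change -0.80, SE 0.30, edgeR adjusted p = 0.44). The inhibitory Smad gene smad6b averaged 44.9 ± 9.30 CPM in morphants and 67.2 ± 12.3 CPM in controls, with groups apart, and smad4a averaged 10.7 ± 3.81 CPM in morphants and 16.1 ± 1.84 CPM in controls, with groups that overlapped.

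Of 14 other ligand genes 9 were tested, with 2 log2 fold changes above 0, 7 below and a median of -0.20. Over all tested genes 41.8% were below 0 and the median was 0.12. Groups did not overlap for 1 of the 9, lower, against 9.18% of all tested genes lower. By edgeR 0 passed, and 1 gene, lower, had an unadjusted p under 0.05, against 5.19% of all tested genes lower. It was admp, a ligand made on the dorsal side of the gastrula, at 5.19, 3.37 and 4.08 CPM in morphants 1, 2 and 3, against 6.37, 7.13 and 8.99 CPM in controls 1, 2 and 3, with groups apart (log2 fold change -0.84, SE 0.33, edgeR adjusted p = 0.47). For bmp6 (18.0 ± 6.58 CPM in morphants and 22.9 ± 4.77 CPM in controls) and bmp8a (7.75 ± 3.50 CPM in morphants and 5.31 ± 1.02 CPM in controls) the groups overlapped.

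Of 23 names of other extracellular modulators 21 were found, and 15 rows were tested, with 7 log2 fold changes above 0, 8 below and a median of -0.10. Over all tested genes 41.8% were below 0 and the median was 0.12. Groups did not overlap for 2 rows higher and 1 lower, against 7.77% of all tested genes higher and 9.18% lower. By edgeR 0 passed, and 1 gene, higher, had an unadjusted p under 0.05, against 4.47% of all tested genes higher. This gene, tsku, encodes the secreted protein Tsukushi and averaged 61.8 ± 3.64 CPM in morphants and 40.0 ± 9.40 CPM in controls, with all morphants above all controls (log2 fold change 0.63, SE 0.27, edgeR adjusted p = 0.51). The Chordin-binding factor gene twsg1a averaged 13.7 ± 1.92 CPM in morphants and 9.42 ± 1.18 CPM in controls, also with groups apart (edgeR adjusted p = 0.57). The bambia paralogue bambib lay the other way, at 38.2, 52.4 and 42.5 CPM in morphants 1, 2 and 3, against 64.9, 55.8 and 55.4 CPM in controls 1, 2 and 3, with all morphants below all controls (log2 fold change -0.40, SE 0.25, edgeR adjusted p = 0.62).

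Genes known to respond to Bmp signals lay on both sides of 0, with 10 of 20 log2 fold changes above 0, 10 below and a median of 0.04. Over all tested genes 41.8% were below 0 and the median was 0.12. By edgeR 0 passed, and 2 had an unadjusted p under 0.05, both lower, against 5.19% of all tested genes lower. They were tfap2c, an ectodermal transcription factor gene, at 174.6 ± 28.6 CPM in morphants and 264.2 ± 24.5 CPM in controls, and the homeobox gene msx1a, at 39.6 ± 12.4 CPM in morphants and 66.1 ± 12.6 CPM in controls. Their edgeR adjusted p-values were 0.51 each. The homeobox gene eve1, marking ventral and posterior cells, stood at 428.8, 203.6 and 394.8 CPM in morphants 1, 2 and 3, against 210.4, 254.7 and 229.9 CPM in controls 1, 2 and 3, and its log2 fold change was 0.56 (SE 0.33) with an edgeR adjusted p of 0.60. It was 0.81 without morphant 2 (adjusted p = 0.043), where 8.46% of all tested genes passed, and 0.37 without morphant 1 (adjusted p = 0.70). Of the immediate targets, id1 stood at 5409, 1693 and 4111 CPM in morphants 1, 2 and 3, against 2405, 2609 and 3153 CPM in controls 1, 2 and 3. As with eve1, morphants 1 and 3 were above every control and morphant 2 was below them all. Morphants 1 and 3 lay above all controls for 25.9% of all tested genes. Both genes are short, with gene lengths of 0.646 (eve1) and 0.492 (id1) of the median. The part of gene length in this pattern was not tested. The values of id1 were chosen after they were seen. Its log2 fold change was 0.46, and the other id genes of the list lay on both sides of 0. They were id2a at 0.36, id3 at 0.27, id2b at -0.67 and id4 at -0.055.

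**Figure D4:**
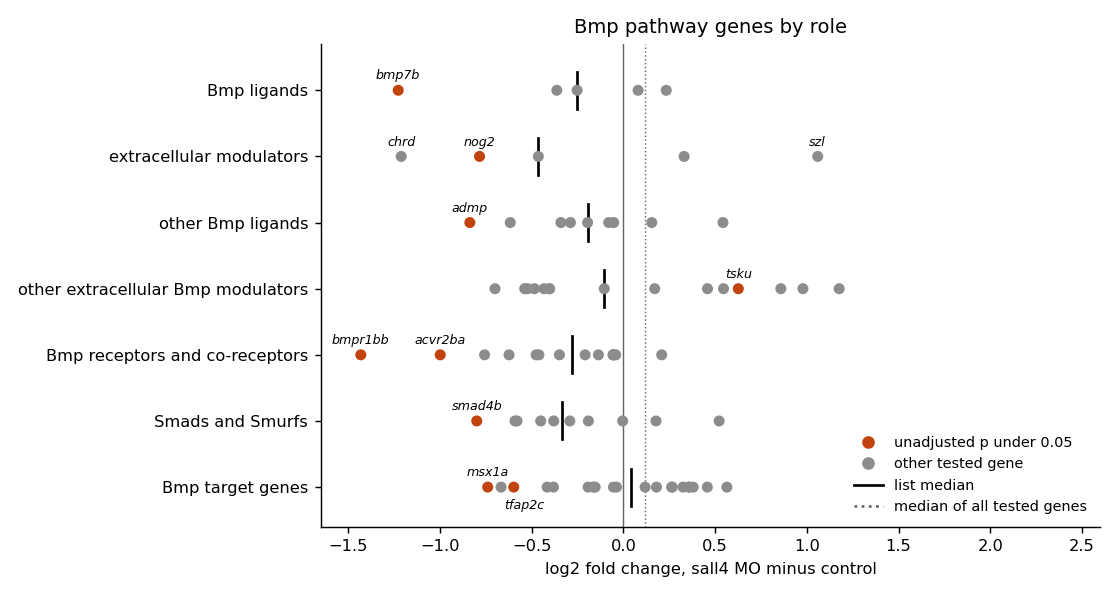
Log2 fold change, sall4 MO minus control (horizontal axis), of every tested gene in 7 lists of Bmp pathway genes ordered by role. Points are genes, orange where the unadjusted edgeR p was under 0.05. Black bars are list medians and the dotted line is the median of all tested genes, 0.12. Of the 14 receptors and co-receptors 13 lie below 0, with bmpr1aa, bmpr1ab, bmpr1ba and hjv among them close to 0.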

How the data were processed

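The authors deposited whole-number counts per Ensembl gene and FPKM values for the same 32520 genes and 6 libraries. Libraries were strand-specific, per the labels' protocols. Named without roles in the submitters' processing notes are GRCz11, STAR 2.7.10a and DESeq2 1.38.3. The counting tool, the strand setting and the annotation were "not given in the sources used here", which leaves the counts of near-identical, overlapping or antisense genes uncertain. The deposited FPKM equal counts divided by a gene length and 1 scale per library. No genome of that build was used, and no coordinates or sequences are printed.

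Counts were filtered (filterByExpr), scaled by TMM and fitted with edgeR 4.0.16 in R 4.3.3 (quasi-likelihood, group as the only term), with two-sided p-values adjusted by Benjamini-Hochberg over 17803 genes and a threshold of 0.05. CPM use TMM-scaled library sizes. An SE is the log2 fold change divided by the square root of F. Depth bounds the precision of the scarce genes, and the exact Poisson intervals cover counting error only. Alternatives used DESeq2 1.42.0, limma 3.58.1 (on log2(FPKM + 1) and log2(FPKM + 0.1), which understate changes of low genes, and voom), other scalings and filters, a length trend (lowess, span 0.3, lengths relative to the median) and left-out libraries. The fits were tested on simulated counts. Figures were drawn with matplotlib 3.10.9.

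The genes, lists and tests were chosen with earlier results of these data known. Named were all 10 genes, up to 3 genes per pathway list with the smallest p, and the 3 closest patterns for the ligand and the modulator with the smallest p and with the highest mean FPKM. Other genes were chosen after their values were seen or are cell type markers listed beforehand.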

Additional observations from a re-analysis of the deposited data

How the results depend on the processing

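Of the 10 genes, 8 kept the direction of their log2 fold change in all 19 alternatives. The exceptions were bmp2b, at -0.49 against the scrambled control alone, -0.043 with voom quality weights, -0.31 without morphant 2 (-0.31 to 0.46 with single libraries left out), -0.14 without control 2, -0.028 without control 3 and -0.39 with the length trend removed and morphant 2 left out, and bmp2a, at -0.14 in the last of these. That last setting was added after the data were seen. The number of the 10 past the threshold was 4 with voom quality weights (nog2, chrd, bmp7b and bambia), against 39.4% of all genes. It was 1 with the length trend removed and morphant 2 left out (chrd, against 5.75% of all genes). With single libraries left out it was 0 to 1, the 1 being chrd without morphant 2 (against 8.46% of all genes). At an unadjusted p under 0.05 it was 6 with voom quality weights (49.5% of all genes) and 0 to 5 with single libraries left out. It was lowest without control 1 (4.69% of all genes), 1 without morphant 1 or 3 (nog2), and highest without morphant 2 (33.7% of all genes). Groups did not overlap for 6 genes against the scrambled control alone (45% of all genes), 4 with the length trend removed (19.3%), 7 with that and morphant 2 left out (49.3%), and 2 to 8 with single libraries left out, 8 without morphant 2 (52.7%) and 4 without morphant 1 (26.6%), control 1 (20.6%) or control 2 (32.2%).

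Over all genes 5 passed the threshold, against 1 with library sizes alone, 28 without a filter, 336 by DESeq2, 0 with the replicate block, 11 on log2(FPKM + 1), 16 on log2(FPKM + 0.1), 0 on unfiltered log2(FPKM + 1), 0 against the scrambled control alone, 7013 with voom quality weights, 20 with the length trend removed, 1042 with that and morphant 2 left out, and 0 to 1534 with single libraries left out, the most without morphant 2. The lone scrambled control was assumed to vary like the morphants. The causes were not tested. Same-numbered libraries had correlations of their deviations from group means of -0.29, -0.10 and 0.16. Whether the numbers pair the samples is not said in the labels, and with 3 libraries per group these values cannot settle it. With the replicate block 0 of the 10 passed, and 2 (chrd and nog2) had an unadjusted p under 0.05, beside 6.21% of all genes. At 20 to 132 counts per library, bmp7b is the gene most limited by depth.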

Other observations

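The ratio of szl to chrd in FPKM was 18.7, 1.17 and 8.77 in morphants 1, 2 and 3, against 0.332, 1.63 and 1.42 in controls 1, 2 and 3. Morphants 1 and 3 stood above every control, and morphant 2 stood inside the control range. The ratio was chosen after the values were seen and was not tested.

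The gene tll1, which encodes a Tolloid-like protease of the kind that cuts Chordin, stood at 8.54, 107.0 and 28.0 CPM in morphants 1, 2 and 3, against 19.2, 24.7 and 19.7 CPM in controls 1, 2 and 3. Morphant 2 was the highest library and morphant 1 the lowest. It was chosen after its values were seen (log2 fold change 1.18, unadjusted p = 0.15 by edgeR).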
